A study of Drosophila melanogaster with 8 samples.

Results

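Neuronal excitability depends on ion channels in the membrane, and transmitter release depends on the proteins that load, dock, fuse and recycle synaptic vesicles. Voltage-gated sodium channels start the spike, potassium channels end it and set the resting state, and calcium channels at the terminal couple the spike to vesicle fusion. In flies several of these genes were first found through mutants that shake, seize or become paralysed, and they have long served to study seizure-like activity. Here 53 such genes were followed, 26 of channels and their auxiliary proteins and 27 of the release machinery. They were listed by function, with earlier results of these data known. A clone was kept where it was annotated to 1 of them and had a value on at least 2 arrays of each day. This left 21 clones of 19 genes among 13824 clones on the array, 12 of channels and 9 of release genes.

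The samples were heads of unmated wild-type Oregon R male Drosophila melanogaster, which were 3 to 4 days old at the start. Treated flies were kept for 7 days on food containing 8 mg/ml pentylenetetrazole (PTZ). They then spent 3 days on food containing 24 mg/ml vigabatrin (VGB), and their heads were collected on day 10. A second treated set was then returned to normal food for 4 days and collected on day 14, while control flies had only normal food and were collected on the same day as their treated set. PTZ provokes seizures by blocking the chloride channels that GABA opens, while VGB, used against epilepsy, inhibits the enzyme that breaks GABA down. Each day had 4 two-colour arrays, each with 1 pool of treated and 1 pool of control heads from a separate biological replicate. Treated RNA was in Cy5 on replicates 1 and 2 and in Cy3 on replicates 3 and 4. No flies given either drug alone were included, so the effects of the drugs cannot be told apart.

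Each value below is a clone's log2 treated/control ratio, the mean of its spots, after subtracting the median of each array, so that 0 is the middle of that array. A difference of 1 is a change of 2 times. The ratio was taken as Cy5 over Cy3 and turned where treated RNA was in Cy3. The files do not state that direction, and every sign below rests on it. The arrays held from 8419 to 20241 spots with a value. The table holds ratios and no levels, so the presence of cell types could be read only from spots that passed the authors' filters. Such clones existed for Rbp9 and nrv3 among the neuronal markers, for 7 clones of photoreceptor markers and for 9 of glial markers, while elav, repo and ninaE had no clone in the annotation used. None of 7 testis and accessory gland clones was measured widely enough to be tested. In these bulk RNA samples fewer cells of a type and less RNA per cell cannot be told apart.

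No channel or release clone passed the threshold at day 10, at day 14, in the difference between the days or in their mean (limma with Benjamini-Hochberg adjustment over 7028 clones, threshold 0.05). At day 10 the count was 0 of 21, where 54 of 7028 clones passed overall (0.768%). At day 14 it was 0 of 21, where 0% of all clones passed. The difference between the days also gave 0 of 21 against 0%, and the mean of both days gave 0 of 21 against 2.23%. At an unadjusted p under 0.05 the counts were 3 of 21 at day 10 against 19.1% of all clones, 3 of 21 at day 14 against 16.2%, 2 of 21 for the difference against 10.6% and 3 of 21 for the mean against 22.6%. Each of these 4 counts is a smaller share than that of all clones. The 95% intervals reached from -0.94 to 1.26 over the members at day 10 and from -0.85 to 1.15 at day 14, with a median half-width of 0.39 on each day. A missed threshold therefore leaves room for any change within a clone's own interval, and these intervals differed. At day 10 that of NaCP60E ran from 0.18 to 0.75 and that of EndoA from -0.78 to 1.26.

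**Figure D1:**
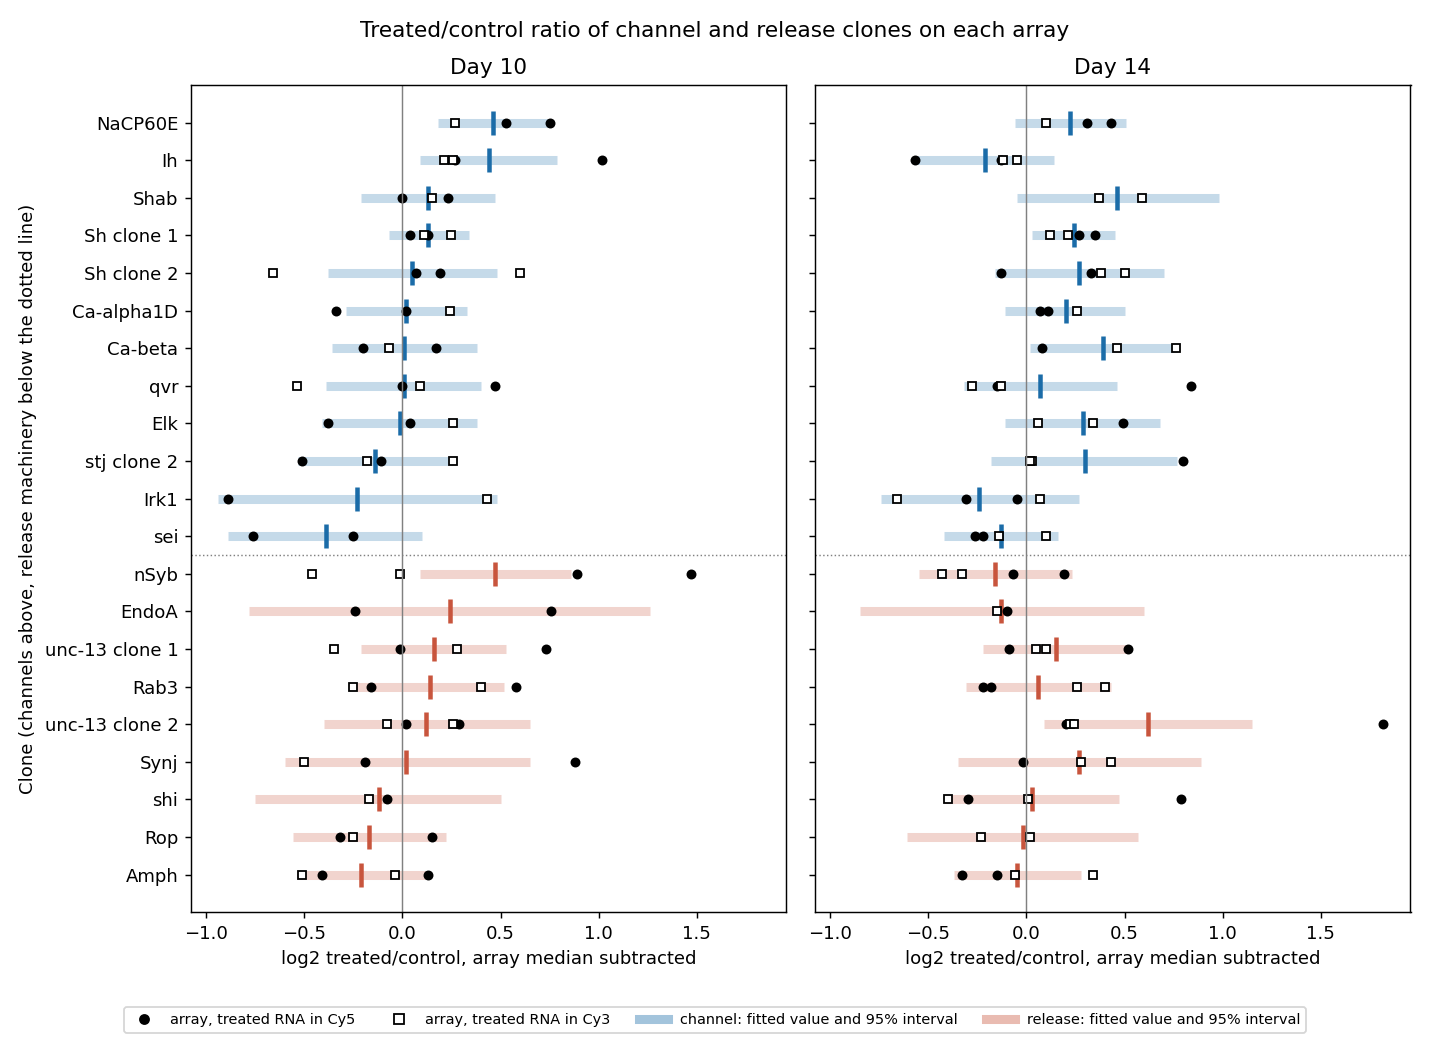
Log2 treated/control ratio of each channel and release clone on each array (x axis, array median subtracted), with day 10 in the left panel and day 14 in the right. Filled circles are arrays with treated RNA in Cy5, open squares arrays with treated RNA in Cy3, the short bars are fitted values and the pale bands are 95% intervals. At day 10 the bands of NaCP60E, Ih and nSyb lie above 0, and the nSyb circles (1.47 and 0.89) and squares (-0.46 and -0.01) lie apart.

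The sodium channel family was represented by NaCP60E, which encodes a voltage-gated cation channel related to the sodium channels. Its clone carries the older name CG18506 in the array's annotation and was joined to NaCP60E as a listed synonym. At day 10 the NaCP60E clone had 0.75, 0.53 and 0.27 on replicates 1, 2 and 4, and at day 14 it had 0.43, 0.31 and 0.10 on replicates 1 to 3. All 6 measured values lay above the array median. The fitted day-10 difference was 0.46 ± 0.12 (SE, 3 arrays of the day, limma adjusted p = 0.119), the smallest adjusted p among the members at day 10. Over both days NaCP60E had 0.34 ± 0.09 (6 arrays, adjusted p = 0.0928). The spots of NaCP60E on day-10 replicate 1 differed by 1.37, the largest gap between spots among the members. Centred on printed neighbours, NaCP60E had -0.23 and 0.01 on day-10 replicates 1 and 2. In that setting it had 0.07 and 0.52 on day-14 replicates 2 and 3, and no value on the other arrays.

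Ih encodes the hyperpolarization-activated channel that carries a pacemaker current. At day 10 the Ih clone had 1.02, 0.27, 0.26 and 0.21 on replicates 1 to 4, all above the array median. At day 14 it had -0.13, -0.57, -0.12 and -0.05, all below it, so the days did not overlap under this centring. The share of all clones whose days lay apart in this way was not counted. Centred on printed neighbours the Ih values were 0.72, 0.07, -0.13 and 0.14 at day 10 and 0.04, -0.12, -0.23 and 0.10 at day 14, and the days overlapped. They also overlapped as deposited, where day-10 replicate 2 had -0.07 and day-14 replicate 4 had 0.19. The fitted values were 0.44 ± 0.16 at day 10 and -0.21 ± 0.16 at day 14 (SE, 4 arrays each, limma adjusted p = 0.18 and 0.537). The difference, day 14 minus day 10, was -0.66 ± 0.22 and did not pass (adjusted p = 0.418). Without day-10 replicate 1 the day-10 value of Ih was 0.22, and without day-14 replicate 2 its day-14 value was -0.06.

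Of the voltage-gated potassium channels, 4 genes were measured. Shaker (Sh), which encodes a fast inactivating channel that repolarises the axon, had 2 clones on the array. The clone printed in block 43 (clone 1) had 0.04, 0.13, 0.11 and 0.25 at day 10 and 0.27, 0.35, 0.21 and 0.12 at day 14. It lay above the array median on 8 of 8 arrays, and the share of all clones that did so was not counted. As deposited, clone 1 had -0.45 and -0.21 on day-10 replicates 1 and 2. Centred on printed neighbours, it had -0.07 on day-14 replicate 4 and no value on day-10 replicate 4. Its fitted values were 0.13 ± 0.09 and 0.24 ± 0.09 (limma adjusted p = 0.465 and 0.264), with a 95% interval of -0.07 to 0.34 at day 10 and 0.03 to 0.45 at day 14. The other Sh clone, in block 44 (clone 2), had 0.07, 0.19, -0.66 and 0.60 at day 10 and 0.33, -0.13, 0.50 and 0.38 at day 14. These values crossed 0 on both days, and the fitted values were 0.05 ± 0.19 and 0.27 ± 0.19. The Sh clones thus had similar fitted values at day 14, with a wider scatter for clone 2.

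Shab, which encodes a delayed rectifier, had 0.23, 0.00 and 0.15 at day 10 on replicates 1 to 3 and 0.59 and 0.37 at day 14 on replicates 3 and 4. Both day-14 values were above every day-10 value, but both came from arrays with treated RNA in Cy3, and the difference of 0.33 ± 0.28 did not pass (limma adjusted p = 0.677). Elk, which encodes a channel of the ether-a-go-go family, had 0.04, -0.38 and 0.26 at day 10 on replicates 1 to 3 and 0.49, 0.06 and 0.34 at day 14 on replicates 2 to 4. Its values overlapped between the days. The seizure gene sei, which encodes the fly's ERG-type potassium channel and whose mutants seize when heated, had -0.76 and -0.25 at day 10 on replicates 1 and 2, both with treated RNA in Cy5. At day 14 sei had -0.26, -0.22, -0.14 and 0.10. It had the lowest fitted day-10 value of the members, -0.39 ± 0.21 (adjusted p = 0.36), against -0.13 ± 0.12 at day 14.

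Other potassium channel genes scattered around 0. The qvr gene, also called sleepless, encodes a small membrane-anchored protein that acts on Shaker channels. Its clone had 0.00, 0.47, -0.54 and 0.09 at day 10 and 0.84, -0.15, -0.28 and -0.13 at day 14. Only day-14 replicate 1 lay far above 0, and the fitted values were 0.01 ± 0.17 and 0.07 ± 0.17. Irk1, which encodes an inward rectifier, had -0.89 and 0.43 at day 10 on replicates 1 and 4 and -0.05, -0.31, 0.07 and -0.66 at day 14. The 2 day-10 arrays of Irk1 had opposite signs, and its standard error of 0.30 was the largest among the channel clones on that day.

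Calcium channel genes had 3 clones that could be tested, none of which passed. Ca-beta encodes the cytoplasmic subunit that brings calcium channels to the membrane. It had -0.20, 0.17 and -0.07 at day 10 on replicates 1 to 3 and 0.08, 0.46 and 0.76 at day 14 on replicates 2 to 4, and the fitted values were 0.01 ± 0.16 and 0.39 ± 0.16 (limma adjusted p = 0.985 and 0.288). The day-14 value of Ca-beta was 0.64 without day-14 replicate 2 and 0.27 without replicate 4. Ca-alpha1D, the pore subunit of the L-type channel, had 0.02, -0.34 and 0.24 at day 10 on replicates 1, 2 and 4 and 0.11, 0.07 and 0.26 at day 14 on replicates 1 to 3. The days overlapped. The measured clone (clone 2) of straightjacket (stj), the alpha2delta subunit that acts at synaptic terminals, had -0.11, -0.51, 0.26 and -0.18 at day 10 and 0.80, 0.03 and 0.02 at day 14 on replicates 1, 3 and 4. Its day-14 fitted value was 0.30 ± 0.20, and only replicate 1 lay far from 0.

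Among the fusion proteins, nSyb encodes the synaptobrevin of neuronal synaptic vesicles, the SNARE protein on the vesicle side. At day 10 nSyb had 1.47 and 0.89 on the arrays with treated RNA in Cy5 and -0.46 and -0.01 on those with treated RNA in Cy3. At day 14 it had 0.19 and -0.07 in the first orientation and -0.43 and -0.33 in the second. On both days the Cy5 arrays were above the Cy3 arrays, and the dye term of nSyb was 0.47, against a median absolute dye term of 0.13 over all clones and 0.11 over the members. Its fitted value was 0.47 ± 0.17 at day 10 and -0.16 ± 0.17 at day 14 (SE, 4 arrays each, limma adjusted p = 0.188 and 0.692), and the difference of -0.63 ± 0.24 did not pass (adjusted p = 0.427). Without day-10 replicate 1 the day-10 value of nSyb was 0.26, and without day-14 replicate 2 its day-14 value was -0.01. Rop, the Sec1/Munc18-type protein that binds syntaxin, had 0.15, -0.32 and -0.25 at day 10 on replicates 1 to 3 and -0.23 and 0.02 at day 14 on replicates 3 and 4. These values overlapped.

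Priming and vesicle regulators came next in the cycle. The unc-13 gene encodes the protein that makes docked vesicles ready to fuse, and it had 2 measured clones. The clone in block 10 (clone 1) had -0.01, 0.73, -0.35 and 0.28 at day 10 and 0.52, -0.09, 0.10 and 0.05 at day 14. The clone in block 28 (clone 2) had 0.02, 0.29, -0.08 and 0.26 at day 10 and 1.82, 0.20, 0.22 and 0.24 at day 14. The latter was above the array median on 4 of 4 day-14 arrays, with a fitted value of 0.62 ± 0.23 (limma adjusted p = 0.254), the highest among the members, whereas the former had 0.15 ± 0.16. The value of 1.82 came from day-14 replicate 1, and without that array the clone in block 28 had 0.23. Rab3, a small GTPase of synaptic vesicles, had 0.58, -0.16, -0.25 and 0.40 at day 10 and -0.18, -0.22, 0.40 and 0.26 at day 14. On each day Rab3 lay on both sides of 0.

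The endocytic genes showed no shared direction. Shibire (shi) encodes dynamin, which pinches vesicles off the membrane and whose heat-sensitive mutants become paralysed. It had -0.08 and -0.17 at day 10 on replicates 2 and 4 and 0.79, -0.30, -0.40 and 0.01 at day 14. Only day-14 replicate 1 of shi lay well above 0. Amph, which encodes amphiphysin and in flies is best known for its part in muscle membranes, had -0.41, 0.13, -0.51 and -0.04 at day 10 and -0.33, -0.15, 0.34 and -0.06 at day 14. Its fitted values were -0.21 ± 0.14 and -0.05 ± 0.14 (limma adjusted p = 0.465 and 0.902). EndoA, the endophilin gene, had 0.76 and -0.24 at day 10 on replicates 1 and 2 and -0.10 and -0.15 at day 14 on replicates 2 and 3, and its 95% interval at day 10 ran from -0.78 to 1.26. Synj encodes the lipid phosphatase synaptojanin, which works with endophilin in uncoating vesicles. It had 0.88, -0.19 and -0.50 at day 10 on replicates 1 to 3 and -0.02, 0.28 and 0.43 at day 14 on replicates 1, 3 and 4. On day-10 replicate 1, EndoA and Synj were both well above 0, and on replicate 2 both were below it.

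A further 8 clones had too few values to be compared between the days. Shal, which encodes a transient potassium channel of the soma and dendrites, had 0.09 and -0.02 on day-10 replicates 1 and 2. The inward rectifier genes Irk2 and Irk3 had 0.16, 0.30 and -0.24 on 3 arrays and -0.28 on 1 array, respectively. Ork1, a two-pore potassium channel gene, had 0.56 and -1.08 on day-10 replicates 1 and 2 and -0.44 on day-14 replicate 2. The sodium channel auxiliary gene tipE had 0.76, 0.08 and -0.24 at day 10 and 0.24 on day-14 replicate 4. The sodium leak channel gene na had 1.54 on day-14 replicate 2 and no other value. The other stj clone, in block 1, had 0.55 and 0.69 at day 10 and -0.22 at day 14, whereas the measured stj clone had -0.11 and -0.51 on the same 2 day-10 arrays. Csp, a chaperone gene of synaptic vesicles, had 0.36, -0.16 and -0.43 at day 10 and no day-14 value. Shal, Ork1, tipE and Csp had values on both sides of 0 within day 10.

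The other 27 genes had no clone under their name in the annotation used and were not analysed here. Among channels these were para, Shaw, eag, KCNQ, Hk, slo, SK, cac and Ca-alpha1T. Among release genes they were Syx1A, Snap25, Snap24, Syt1, Syt4, Syt7, cpx, Nsf2, Rim, Rph, brp, Syn, stnA, stnB, AP-2alpha, lap, Vha100-1 and Vap33. The main sodium channel, the presynaptic calcium channel pore, the SNARE proteins of the plasma membrane and the main calcium sensor of release are therefore outside these results. Of the 29 member clones on the array, 72.4% were measured on 2 or more arrays of each day, compared with 59.4% of the 7558 clones with 1 annotated gene.

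Channels and release machinery were then set against each other. At day 10 the 12 channel clones had a median fitted value of 0.01, with 8 above 0, and the 9 release clones had 0.12, with 6 above 0. All 7028 clones had a median of 0.01 and 50.9% above 0. At day 14 the channel clones had 0.23, with 9 of 12 above 0, the release clones had 0.03, with 5 of 9 above 0, and all clones had 0.00 with 50.9% above 0. No clone of either class passed on either day, so these medians describe where the values lay.

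**Figure D2:**
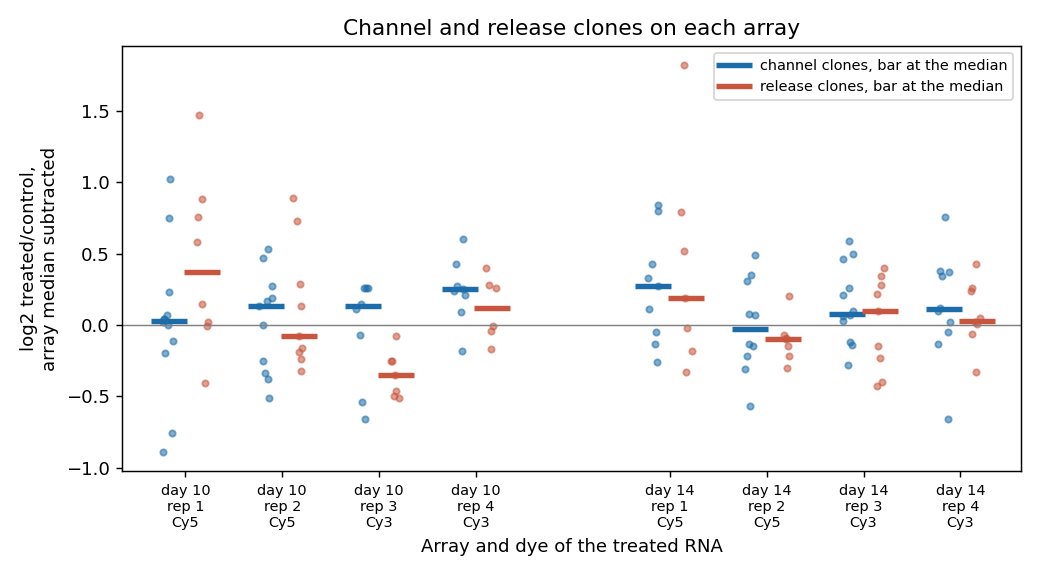
Log2 treated/control ratio (y axis, array median subtracted) of the channel clones (blue) and release clones (red) on each array, with the dye of the treated RNA under each array. Points are clones and bars are class medians. The release median runs from -0.35 to 0.37 over the day-10 arrays, and the channel median from 0.03 to 0.25.

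Array by array, the channel median at day 10 was 0.03, 0.13, 0.13 and 0.25 on replicates 1 to 4, above the array median on each. The release median was 0.37, -0.08, -0.35 and 0.12, so the release genes were split between the arrays. On replicate 3 none of 7 release clones lay above 0, and on replicate 1 this was 6 of 8. Averaged over arrays, the channel median was 0.13 ± 0.09 and the release median 0.01 ± 0.30 (SD, n = 4 arrays), and their difference was 0.12 ± 0.34. This order is opposite to that of the fitted day-10 medians, 0.01 for channel and 0.12 for release clones. Which class lay higher at day 10 thus depended on the summary used. At day 14 the channel medians were 0.27, -0.03, 0.08 and 0.11 and the release medians 0.19, -0.10, 0.10 and 0.03. The mean difference was 0.05 ± 0.05, with channels higher on 3 of 4 arrays on each day. At day 10 this difference was smaller than its spread between arrays, and at day 14 it was about the size of that spread.

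**Figure D3:**
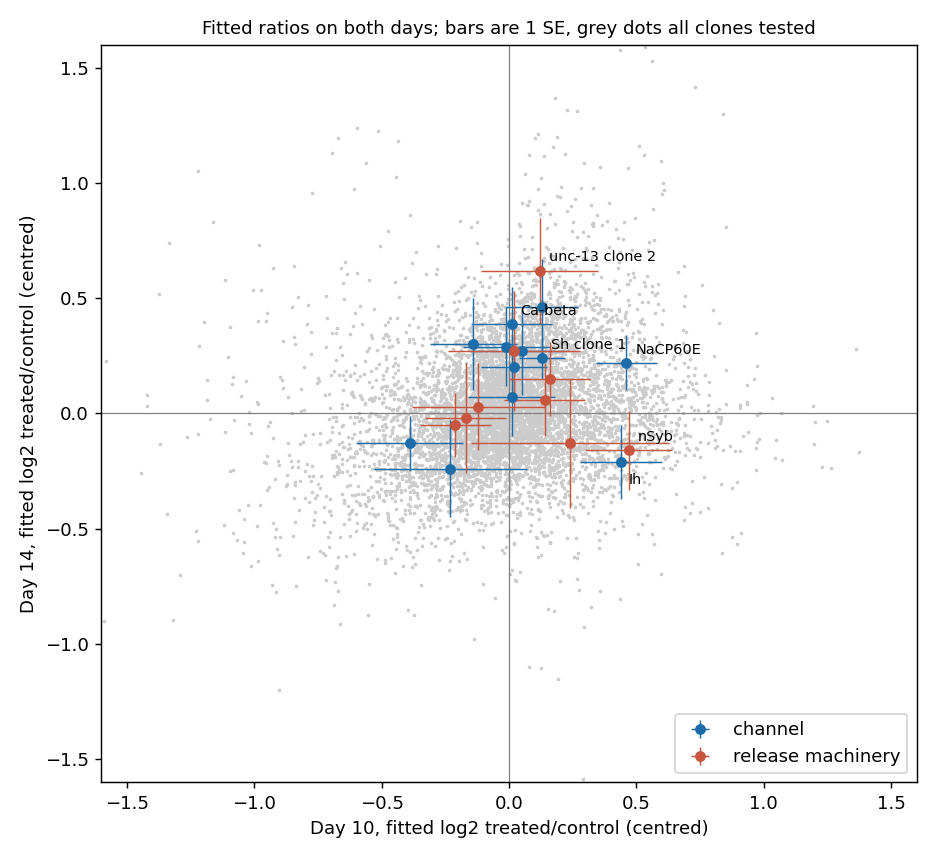
Fitted log2 treated/control ratio at day 10 (x axis) and day 14 (y axis), array median subtracted, for channel clones (blue) and release clones (red), with bars of 1 SE. Grey dots are all clones tested, apart from 8 beyond 1.6 in size, and the names mark the 6 clones with an unadjusted p under 0.05 on a day. The members lie within the cloud of all clones.

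Of the 6 member clones with an unadjusted p under 0.05, NaCP60E, Ih and nSyb had it at day 10 and Ca-beta, the Sh clone of block 43 and the unc-13 clone of block 28 at day 14. No clone had it on both days. Of the clones measured on all 4 arrays of a day, 2 of 10 members were above the array median on every array at day 10 and none below, and at day 14 these counts were 2 and 1 of 12. Among all tested clones with 4 values the shares were 9.8% above and 13.1% below at day 10, and 13% above and 16.7% below at day 14.

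The position of a clone on the slide moved with these values at day 10. NaCP60E, Ih and nSyb were all printed in the first 16 of 48 print blocks, in blocks 10, 5 and 15. All clones in those blocks had medians of 0.32 and 0.26 on day-10 replicates 1 and 2, against -0.09 and -0.11 for the other blocks. On replicate 3 the order was turned, with -0.10 against 0.05, and on replicate 4 the medians were 0.03 and -0.04. Over the 4 arrays the median fitted value was 0.11 against -0.04. The first 16 blocks held 38.2% of all tested clones. Of the 21 member clones 6 lay in them, with a median day-10 value of 0.30, and 15 lay elsewhere, with 0.02. After subtracting the median of printed neighbours in place of the array median, the day-10 values of nSyb, NaCP60E and Ih were 0.05 ± 0.12, 0.11 ± 0.22 and 0.20 ± 0.13 (limma adjusted p = 0.914, 0.882 and 0.56). The Sh clone of block 43 had no value on day-10 replicate 4 in that setting. It went the other way, from 0.13 to 0.36 ± 0.12 with an interval of 0.10 to 0.63 (adjusted p = 0.256). It was the 1 of 21 members with an unadjusted p under 0.05 in that setting, against 12.6% of all clones. NaCP60E kept only 4 arrays in that setting. Its day-10 values there were -0.23 and 0.01, both with treated RNA in Cy5, so its fitted 0.11 lay above 0 only through the dye term. All 6 member clones of the first 16 blocks had lower values in that setting, and their median was then -0.02, while 5 of the other 15 had lower values and their median was 0.03. At day 14 the locally centred values were 0.45 ± 0.12 for Ca-beta, 0.63 ± 0.23 for the unc-13 clone of block 28 and 0.17 ± 0.10 for the Sh clone of block 43 (adjusted p = 0.257, 0.308 and 0.509).

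**Figure D4:**
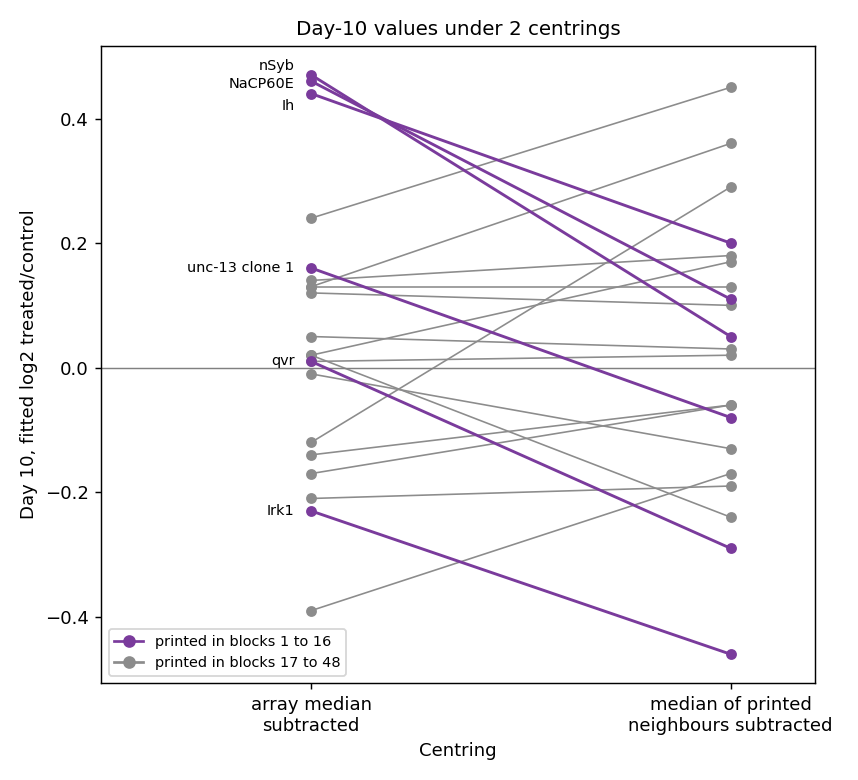
Fitted day-10 log2 treated/control ratio of each member clone (y axis) after subtracting the array median (left) and after subtracting the median of printed neighbours (right). Purple lines are the 6 clones printed in blocks 1 to 16 and grey lines the 15 in blocks 17 to 48. The 6 purple lines all go down, and nSyb goes from 0.47 to 0.05.

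The centring of the arrays also set how many clones passed overall. With the ratios as deposited, day 10 gave 510 of 7028 clones (7.26%), of which 499 were lower in treated heads, and 0 of 21 members, with 2 of 21 members against 30.1% of all clones at an unadjusted p under 0.05. In that setting the median of all clones at day 10 was -0.22, and the channel and release clones had -0.21 and -0.09. Amph had the smallest adjusted p there, with -0.43 ± 0.14 (limma adjusted p = 0.0837).

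Day 14 gave a different count when its arrays were fitted without those of day 10. The fit of day 14 alone called 415 of 5674 clones (7.31%) and the fit of day 10 alone called 0% of 7470 clones, and 0 of 18 and 0 of 17 member clones passed. At an unadjusted p under 0.05, the day-10 fit had 3 of 17 members against 14.3% of all clones and the day-14 fit had 6 of 18 members against 30.4% of all clones. All 6 were above 0. With 4 arrays each, both Sh clones had 0.24 ± 0.08 and 0.27 ± 0.10, and the unc-13 clone of block 28 had 0.62 ± 0.22. With only 3 arrays each, the clone of stj had 0.41 ± 0.10, Ca-beta 0.35 ± 0.11 and Elk 0.34 ± 0.11. These 3 clones had a single array with treated RNA in Cy5, which the dye term fitted without residual. For stj that array had 0.80, against 0.03 and 0.02 on the Cy3 arrays. Of the 6 clones, 5 are channel clones, including both of Sh, and channels were also 12 of the 21 measured clones. The share above 0 among all clones at that unadjusted p was not counted. The smallest adjusted p was 0.0593, for stj. The 415 called clones were 203 higher and 212 lower in treated heads. These 6 member clones were all printed in blocks 17 to 48. In the fit of both days, all clones had a median day-14 value of 0.03 there, against -0.04 in blocks 1 to 16. In that fit, centring on printed neighbours took Elk from 0.29 to 0.06 and stj from 0.30 to 0.16. Sh clone 1 went from 0.24 to 0.17, Ca-beta from 0.39 to 0.45 and unc-13 clone 2 from 0.62 to 0.63. Sh clone 2 kept 0.27. The median residual SD of all clones was 0.15 for day 14 alone, 0.23 for day 10 alone and 0.25 for both days together.

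Further genes of the same pathways that are not members were looked at in the same fit. Of 32 other channel, pump and channel-partner genes, 7 were tested with 1 clone each, and 0 of the 7 clones passed in either direction on either day. Among the 7, nrv3 is also a neuronal marker and nrv2 is also a glial marker in the lists used here. Their median was -0.08 at day 10 and 0.29 at day 14, and an unadjusted p under 0.05 was found for 1 and 0 of them. Of 51 other vesicle cycle and synapse genes, 22 were tested with 23 clones, of which 0 passed on either day. Their medians were 0.00 and 0.05, with 3 and 2 clones at an unadjusted p under 0.05. Among markers of other head tissues in the same fit, 1 of 9 glial and 1 of 14 fat body clones passed as lower at day 10. The list medians were -0.36 and -0.30, with 6 and 7 clones at an unadjusted p under 0.05. Of those clones, drpr among glial (0.43) and Yp2 among fat body markers (0.69) were higher and the others lower. At day 14 none passed, with list medians of -0.16 and -0.19 and 2 and 3 clones at an unadjusted p under 0.05. The neuronal markers nrv3 and Rbp9 had -0.10 ± 0.12 and -0.24 ± 0.15 at day 10 and -0.03 ± 0.15 and 0.04 ± 0.15 at day 14, and neither passed (limma adjusted p of 0.422 or more). The 7 photoreceptor and 7 muscle clones had day-10 medians of -0.11 and 0.00, and none passed, with 0 and 1 at an unadjusted p under 0.05. The 6 haemocyte clones had medians of 0.14 at day 10 and -0.06 at day 14. None of them passed, with 1 and 3 at an unadjusted p under 0.05. Among all clones 19.1% had an unadjusted p under 0.05 at day 10 and 16.2% at day 14. Whether the make-up of the heads took part in the members' values was not tested.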

How the data were processed

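Two-colour cDNA arrays compared treated with control heads, 4 arrays per day. Per the submitters' design text, slides were scanned and quantified by the authors with GenePix instruments and software, ratios were normalized in Acuity, and spots were filtered on intensity, background, saturation, uniformity and signal-to-noise. The deposited values are log2 ratios, a scale read from the values, and their centring and direction are not stated. The direction was taken as Cy5 over Cy3 from the dyes in the labels. Before turning, arrays of the same orientation correlated with r between 0.04 and 0.69 in 12 pairs, and those of opposite orientation between -0.26 and 0.11 in 16.

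Neighbouring spots were paired in their order and averaged as 1 clone. In all 7609 annotated pairs both spots had the same annotation, while 6215 pairs had none and rest on the order alone. Of the 7558 clones with 1 gene, 7447 matched the RefSeq table of Release 6 by gene ID, 14 by symbol and 91 by synonym, and 6 kept their name. Array medians were subtracted. limma 3.58.1 in R 4.3.3 fitted a coefficient per day and a common dye term to the 7028 clones with values on 2 or more arrays of each day and all coefficients estimable, and p-values were adjusted by Benjamini-Hochberg over all of them. Difference and mean of the days were fitted as coefficients of their own, because missing values make contrasts inexact. The fit was tested on simulated data. The labels name 4 biological replicates per day.

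Named were clones past the threshold in a test, the 6 with the smallest p per class and day, and clones of genes with several measured clones. All other members were named as well. Members and lists were chosen with earlier results of these data known. Alternatives were other centrings and scaling, a stricter filter, no dye term, single-day fits, the opposite reading of the ratio, both spots required, robust variances, a replicate block and leaving out each array. Scanner intensities were not used here, so signal over background is unknown.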

Additional observations from a re-analysis of the deposited data

Results flagged for a closer look

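Ih had values on opposite sides of the array median on the 2 days, above it on 4 of 4 day-10 arrays and below it on 4 of 4 day-14 arrays. As deposited and centred on printed neighbours, its days overlapped. The clones printed next to Ih also had fitted values above 0 at day 10 and below 0 at day 14. They were 0.295 and -0.326 for santa-maria and 0.429 and -0.195 for an unnamed clone. The share of all clones with this pattern was not counted, so it cannot be called particular to Ih. The fitted difference of Ih, day 14 minus day 10, was -0.66 ± 0.22 and did not pass (limma adjusted p = 0.418). Centring by print block gave -0.34 and centring on printed neighbours gave -0.25.

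A single array stood far from the other 3 of its day in 4 of the 22 sets of 4 values. The rule flags about 1 in 20 sets by chance where the 4 values come from 1 normal distribution. The share of all clones flagged was not counted, so this cannot be called particular to the members. Ih had 1.02 on day-10 replicate 1 against 0.21 to 0.27 on the others, and -0.57 on day-14 replicate 2 against -0.13 to -0.05. The qvr clone had 0.84 on day-14 replicate 1 against -0.28 to -0.13, and the unc-13 clone of block 28 had 1.82 on that array against 0.20 to 0.24. The spots of that unc-13 clone differed by 0.19 there, and those of qvr by 0.02. Centred on printed neighbours, the unc-13 value was 1.84, and qvr had no such value on that array.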

How the results depend on the processing

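The count of member clones past the threshold was 0 in each test run under every alternative, where the single-day fits gave only the day-10 and day-14 tests, including each array left out in turn (range 0 to 0), while the count of all clones moved widely. At day 10 it was 54 in the fit reported, 510 as deposited, 32 after local centring, 30 without a dye term, 138 with 3 or more arrays of each day and both dye orientations, 0 under the reading of the ratios as turned before deposit, 0 in the fit of day 10 alone, and between 0 and 105 with 1 array left out (0 without day-10 replicate 4, 1 without day-10 replicate 1, 2 without day-14 replicate 4). At day 14 it was 0 in the fit reported and 415 in the fit of day 14 alone. For the mean of the days it was 157 in the fit reported, 367 as deposited, 90 after local centring, 293 with arrays scaled to one spread, 301 with 3 or more arrays of each day, 37 without a dye term, 1 with the turned reading and between 0 and 132 with 1 array left out (0 without day-10 replicate 4 or day-14 replicate 4). Fits without an array tested 18 to 21 member clones, because 2 values per day were still required.

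The channel median at day 10, 0.13 over arrays, was -0.08 as deposited, -0.01 after local centring and -0.05 under the turned reading, and the channel minus release difference at day 14, 0.05, was 0.15 after local centring. At day 10 the difference, 0.12 over arrays, changed sign after local centring, with release clones above channel clones. Of 1447 member values under the alternatives, 145 changed sign without passing and none crossed the threshold. Under the turned reading 16 of 42 day values changed sign, and Ca-beta at day 14 had -0.33 in place of 0.39. The causes were not tested.

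The replicate number as a block gave 0 of 18 member clones at either day, with 54 and 0 of 4944 clones in all, and 99 for the mean of the days. Same-numbered arrays of the days deviated together with r = 0.0997, 0.2646, 0.1566 and 0.2524 over 1881 clones, and each day-10 array correlated best with its own number, a hint from the data and not the design, since numbers and dye orientation coincide. Within one orientation r was 0.03 to 0.05. The number was therefore not taken as a pairing.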
